A study of Homo sapiens with 12 samples.

Results

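From the genes measured in 2 human cell lines after knockdown of NUDT21, 9 MHC class I and peptide loading genes are described here. Other genes with such roles were measured too and are given beside them. The 9 were chosen by symbol from the 17518 rows of the deposited count table. They are HLA-B, HLA-C and HLA-E (heavy chains), B2M (light chain), TAP1, TAP2 and TAPBP (peptide transport and loading), PSMB9 (a proteasome subunit) and NLRC5 (a transcriptional activator). All 9 were among the 13625 genes that passed the filter on low counts and were tested.

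The series measured polyadenylated RNA by sequencing in MUTZ-1 and SKM-1, whose labels name them human myelodysplastic syndrome cells from marrow. The 4 groups of 3 libraries each were MUTZ-1 with shNUDT21, MUTZ-1 with sh control, SKM-1 with shNUDT21 and SKM-1 with sh control. The sample names give 1 hairpin against NUDT21 (sh1) in each line, and the control cells carry the genotype label WT. NUDT21 (CFIm25) belongs to a factor that helps to choose where a transcript is cut and polyadenylated. Nothing in the labels says whether a line was made from 1 clone or whether the 3 libraries of a group came from separate cultures, so p-values speak of the spread among these libraries alone.

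A class I molecule consists of a heavy chain (such as HLA-B, HLA-C or HLA-E), beta-2 microglobulin and a short peptide, and shows pieces of the cell's own proteins to CD8 T cells and natural killer cells. Peptides are cut by proteasomes, pumped into the endoplasmic reticulum by the TAP1-TAP2 transporter, and loaded with the help of tapasin (TAPBP), calreticulin and the disulfide isomerase PDIA3. Interferons raise most of these genes through interferon-regulatory factors, and NLRC5 raises them by joining the factors that sit on the conserved X and Y boxes of their promoters.

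Of the members, 7 lie within 2.82 Mb of chromosome 6, in the MHC region, with coordinates on GRCh38 as RefSeq gives them. They are HLA-E (chr6:30489509-30494194, plus strand), HLA-C (chr6:31268749-31272092, minus), HLA-B (chr6:31353875-31357179, minus), TAP2 (chr6:32821831-32838739, minus), TAP1 (chr6:32845209-32853704, minus), PSMB9 (chr6:32854192-32859851, plus) and TAPBP (chr6:33299694-33314078, minus). B2M lies on chromosome 15 (chr15:44711517-44718145, plus) and NLRC5 on chromosome 16 (chr16:56989557-57083520, plus). In GENCODE release 29 the HLA-B model (chr6:31269491-31357188) reaches over HLA-C on the same strand, and the PSMB9 model (chr6:32844136-32859585) reaches over TAP1 on the opposite strand. Which annotation and strand setting the authors counted with was not given in the sources used here. Where gene models overlap, or where reads match several of the near-identical heavy chain genes, the split of counts between these genes is therefore uncertain. The HLA alleles of the lines were not determined here, and reads of alleles unlike the reference may have been counted less fully, which bears on the levels of the heavy chain genes and on their differences between the lines.

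The sequences just upstream of 6 members are shown because these genes carry the results: HLA-B and HLA-C fell after knockdown in both lines, B2M and TAP2 moved in opposite directions in the lines, and TAP1 and PSMB9 start back to back. Each is the 250 bases before the RefSeq transcript start on GRCh38.p14, 5′ to 3′ on the strand of the gene. Windows were matched by symbol for 7 of the 9 members (not HLA-E and NLRC5). Capitals mark matches, on either strand, to any of 5 letter patterns. These were 2 copies of GAAA with any 2 bases between them (the longer interferon element), GAANNGAAA (the shorter interferon element; both are cores bound by interferon-regulatory factors), CCAAT (core of the Y box, bound by NF-Y), TGACG (core of the X2 box, bound by CREB and ATF factors) and an NF-kB site (GGG, any 2 bases, TT, any base, CC). The windows of HLA-B, HLA-C, B2M, TAP1, TAP2 and PSMB9 lie at chr6:31357180-31357429, minus strand, chr6:31272093-31272342, minus strand, chr15:44711267-44711516, plus strand, chr6:32853705-32853954, minus strand, chr6:32838740-32838989, minus strand and chr6:32853942-32854191, plus strand, in that order.
HLA-B: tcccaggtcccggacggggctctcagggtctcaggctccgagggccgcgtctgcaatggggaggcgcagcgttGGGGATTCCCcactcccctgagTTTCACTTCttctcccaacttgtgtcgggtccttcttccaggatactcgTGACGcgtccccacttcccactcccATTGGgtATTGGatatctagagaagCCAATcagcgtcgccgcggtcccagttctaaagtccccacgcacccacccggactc
HLA-C: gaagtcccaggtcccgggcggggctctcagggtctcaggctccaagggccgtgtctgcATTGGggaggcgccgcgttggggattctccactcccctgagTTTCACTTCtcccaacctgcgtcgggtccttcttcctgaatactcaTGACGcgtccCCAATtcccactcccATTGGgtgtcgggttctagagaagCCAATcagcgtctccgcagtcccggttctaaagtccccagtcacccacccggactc
B2M: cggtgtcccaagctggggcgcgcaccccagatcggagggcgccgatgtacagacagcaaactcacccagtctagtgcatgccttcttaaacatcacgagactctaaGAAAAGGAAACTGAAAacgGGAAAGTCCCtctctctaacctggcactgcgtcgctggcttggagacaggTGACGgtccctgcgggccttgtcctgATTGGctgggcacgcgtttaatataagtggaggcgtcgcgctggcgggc
TAP1: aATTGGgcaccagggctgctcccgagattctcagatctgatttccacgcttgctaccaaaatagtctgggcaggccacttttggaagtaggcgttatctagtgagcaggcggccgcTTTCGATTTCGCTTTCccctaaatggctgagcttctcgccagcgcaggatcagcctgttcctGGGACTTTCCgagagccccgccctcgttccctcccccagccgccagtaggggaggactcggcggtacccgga
TAP2: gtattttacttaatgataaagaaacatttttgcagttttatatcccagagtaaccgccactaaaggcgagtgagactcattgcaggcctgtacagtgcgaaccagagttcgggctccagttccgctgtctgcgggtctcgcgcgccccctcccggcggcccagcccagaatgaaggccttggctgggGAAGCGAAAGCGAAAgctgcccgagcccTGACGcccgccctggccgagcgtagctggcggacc
PSMB9: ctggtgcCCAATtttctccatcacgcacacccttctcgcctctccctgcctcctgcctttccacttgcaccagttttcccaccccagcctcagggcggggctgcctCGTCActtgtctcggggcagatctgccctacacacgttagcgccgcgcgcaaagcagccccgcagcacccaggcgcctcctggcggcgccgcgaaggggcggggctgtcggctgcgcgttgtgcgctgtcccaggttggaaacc

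At least 1 of the interferon-regulatory factor patterns stood upstream of 6 of the 7 members with a window, and PSMB9 had none of them in these letters. The longer interferon element was found upstream of B2M, TAP1, TAP2 and TAPBP, and in 3.02% of all 35097 windows of the RefSeq table. The shorter one was found upstream of HLA-B, HLA-C and TAP2, and in 6.56% of all windows. CCAAT stood upstream of HLA-B, HLA-C, B2M, TAP1 and PSMB9 (32.0% of all windows), TGACG upstream of HLA-B, HLA-C, B2M, TAP2 and PSMB9 (21.2%), and the NF-kB site upstream of HLA-B, B2M, TAP1 and TAPBP (5.06%). The windows of TAP1 and PSMB9 overlap by 13 bases, and the CCAAT of both is 1 and the same site in that overlap. The longer interferon elements of TAP1 also lie between the starts of these genes, but beyond the PSMB9 window. In both HLA-B and HLA-C the shorter element is followed by TGACG, which begins 106 bases before the start in HLA-B and 105 in HLA-C, and then by CCAAT. In B2M, TAP1 and TAPBP the longer element occurs 2 times with an overlap of 4 bases, and in TAP2 the shorter and the longer element overlap by 4 bases as well. A match is a description of the letters and was not tested for binding.

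**Figure D1:**
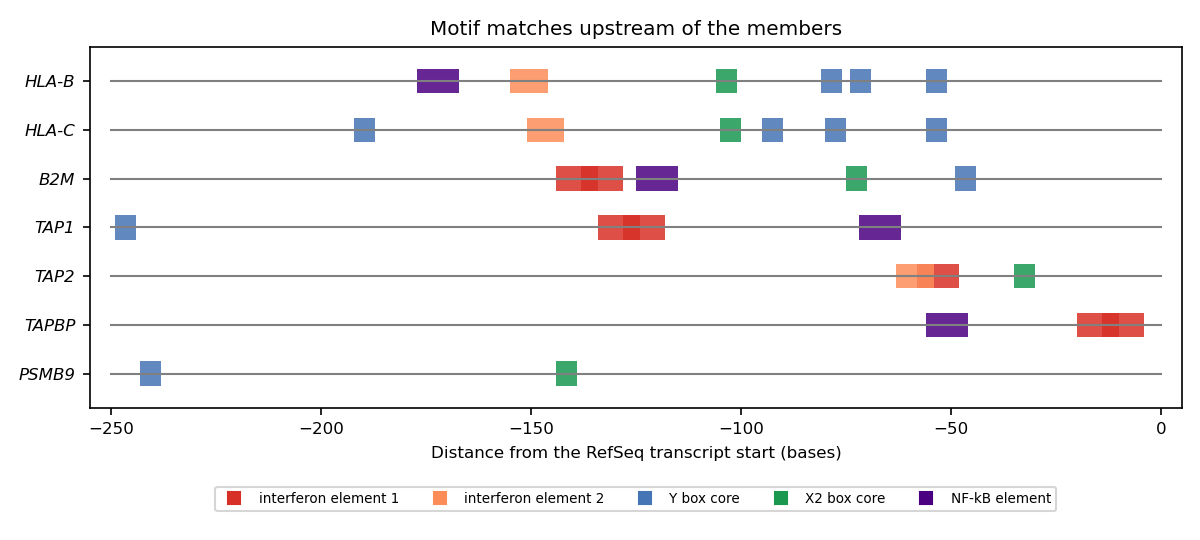
Positions of the 5 letter patterns in the 250 bases upstream of each member with a RefSeq window; the horizontal axis is the distance from the transcript start in bases, each row is a gene and each box a match. "Interferon element 1" is the longer and "interferon element 2" the shorter interferon element. At least 1 of these stands in the 250 bases of 6 of the 7 genes, and none in those of PSMB9.

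Levels of a gene are given in CPM, its count scaled to the size of the library with TMM factors, and levels of different genes are compared in FPKM, which also divides by gene length. Changes are log2 fold changes of shNUDT21 over control with their standard error (SE), from 1 fit of all 12 libraries by edgeR's quasi-likelihood test. A gene is said to have risen or fallen where the Benjamini-Hochberg adjusted p over the 13625 genes was under 0.05.

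Total counts ran from 15843012 to 18426619 per library. NUDT21, the targeted gene, was lower in all shNUDT21 libraries, at 46.1% of control in MUTZ-1 and 39.2% in SKM-1. Of 6 myeloid markers, 1 or 2 were at 1 CPM or more in MUTZ-1 (summed level 64.9 to 74.0 CPM with shNUDT21 and 76.4 to 85.2 CPM in control) and 3 in SKM-1 (88.7 to 98.6 CPM with shNUDT21 and 26.3 to 27.7 CPM in control). Nearly all of the MUTZ-1 sum was SPI1 (69.7 CPM with shNUDT21 and 79.9 CPM in control). MPO, which defines granulocyte precursors, had no count in 11 of the 12 libraries. MUTZ-1 libraries held all 5 B-lineage markers at 1 CPM or more (summed level 1581 to 1625 CPM with shNUDT21 and 1935 to 1945 CPM in control). SKM-1 libraries held all 7 erythroid markers, which all rose at least 2-fold, with a summed level of 4153 to 4360 CPM with shNUDT21 and 1127 to 1147 CPM in control. The erythroid sum in MUTZ-1 (3 of 7 at 1 CPM or more) was 314 to 320 CPM with shNUDT21 and 743 to 763 CPM in control. TFRC made up most of that sum (291 CPM with shNUDT21 and 736 CPM in control). Of the 7 erythroid markers in MUTZ-1, 3 rose, 1 fell and 3 were not called. All 5 leukocyte markers were at 1 CPM or more in both lines, with a sum of 1917 to 1971 CPM with shNUDT21 and 1980 to 1996 CPM in control MUTZ-1, and of 673 to 677 CPM with shNUDT21 and 217 to 228 CPM in control SKM-1. Fibroblast markers summed to 13.6 to 16.9 CPM with shNUDT21 and 56.2 to 62.2 CPM in control SKM-1. They went both ways, with 2 that rose and 2 that fell among the 4 tested. COL3A1 stood at 1.75 CPM with shNUDT21 and 46.2 CPM in control, and COL1A2 at 10.3 CPM with shNUDT21 and 2.65 CPM in control. Of 5 epithelial markers, 4 were at 1 CPM or more in SKM-1 (764 to 789 CPM with shNUDT21 and 373 to 382 CPM in control). The median change per chromosome spanned -1.08 to 0.47 in SKM-1 and -0.02 to 0.04 in MUTZ-1, so that the SKM-1 groups stood apart over whole chromosomes. The part of these shifts in the results on SKM-1 was not tested, and an effect of the hairpin and another difference between the SKM-1 cultures cannot be told apart.

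In MUTZ-1, the class I and loading genes fell together by small amounts after knockdown, while their activator NLRC5 rose. Of the 9 genes, 8 fell and 1 rose, where 24.6% of all tested genes fell and 24.4% rose, or 49% in all. None of the 9 changed 2-fold, as 1.64% of all tested genes did downwards and 3.11% upwards. The median log2 change of the 9 was -0.24, against 0 over all tested genes.

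HLA-B, a classical heavy chain, stood at 437, 444 and 434 CPM in the shNUDT21 libraries of MUTZ-1, against 580, 591 and 572 CPM in its control libraries. Every shNUDT21 library lay below every control library, and 75.5% of the control level remained (log2 fold change -0.41 ± 0.02 SE, adjusted p = 1.17e-39; 73.1 to 77.9% at 95% confidence). HLA-C, the other classical heavy chain among the 9, stood at 305, 306 and 308 CPM with shNUDT21, against 342, 356 and 352 CPM in control. Its groups did not overlap either, and 87.5% was left (-0.19 ± 0.03 SE, adjusted p = 6.57e-11). HLA-E, which presents leader peptides of other class I chains to the NKG2 receptors of natural killer cells, had 35.7, 35.5 and 34.3 CPM with shNUDT21, against 45.1, 41.9 and 46.3 CPM in control. The groups were apart, with 79.0% left (-0.34 ± 0.06 SE, adjusted p = 7.42e-08). In bulk RNA, fewer cells of a type and less RNA per cell cannot be told apart.

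B2M, the light chain that all of these heavy chains need to reach the surface, had 773, 762 and 765 CPM in the shNUDT21 libraries of MUTZ-1, against 897, 921 and 907 CPM in control. The 2 groups were well apart, and 84.4% was left (log2 fold change -0.24 ± 0.02 SE, adjusted p = 6.48e-25). Among the transporter genes, TAP1 stood at 49.1, 50.9 and 47.5 CPM with shNUDT21, against 67.1, 69.3 and 68.8 CPM in control (-0.48 ± 0.05 SE, adjusted p = 1.13e-14). Its partner TAP2 stood at 115, 112 and 119 CPM with shNUDT21, against 163, 168 and 170 CPM in control (-0.53 ± 0.03 SE, adjusted p = 6.73e-35). Both genes of the transporter thus fell to a like share of control, 71.9% for TAP1 and 69.1% for TAP2, the lowest shares among the 9. TAPBP, the gene of tapasin, which bridges the transporter and the empty class I molecule, had 145, 144 and 150 CPM with shNUDT21, against 166, 160 and 168 CPM in control. It fell with no overlap between the groups, to 88.8% (-0.17 ± 0.03 SE, adjusted p = 1.63e-06).

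PSMB9 encodes the beta1i subunit, which takes the place of PSMB6 in the immunoproteasome. It had 21.2, 17.3 and 19.0 CPM with shNUDT21, against 24.9, 20.9 and 21.7 CPM in MUTZ-1 control, so that 1 shNUDT21 library lay above the lowest control library. Its fall was called narrowly (log2 fold change -0.23 ± 0.10 SE, adjusted p = 0.0354) and was lost without control replicate 1 (-0.13, adjusted p = 0.376), control replicate 3 (adjusted p = 0.0849), shNUDT21 replicate 2 (-0.14, adjusted p = 0.302) or shNUDT21 replicate 3 (adjusted p = 0.125). It was also lost without SKM-1 shNUDT21 replicate 1 (adjusted p = 0.0630) or replicate 2 (adjusted p = 0.0595), and under 6 other settings (adjusted p from 0.0601 to 0.466).

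NLRC5 moved against the genes it is known to activate. It stood at 110, 116 and 116 CPM with shNUDT21, against 98.5, 95.0 and 92.5 CPM in MUTZ-1 control. All shNUDT21 libraries were above all control libraries, with a level of 120% of control (log2 fold change 0.26 ± 0.04 SE, adjusted p = 2.34e-08; 113 to 127% at 95% confidence). With log2(FPKM + 0.1) and limma, the calls of NLRC5 (adjusted p = 0.0665), HLA-B (adjusted p = 0.381) and HLA-C (adjusted p = 0.319) were lost, and with log2(FPKM + 1) that of HLA-C (adjusted p = 0.0618). In a fit of the 6 MUTZ-1 libraries alone, all 9 calls held.

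**Figure D2:**
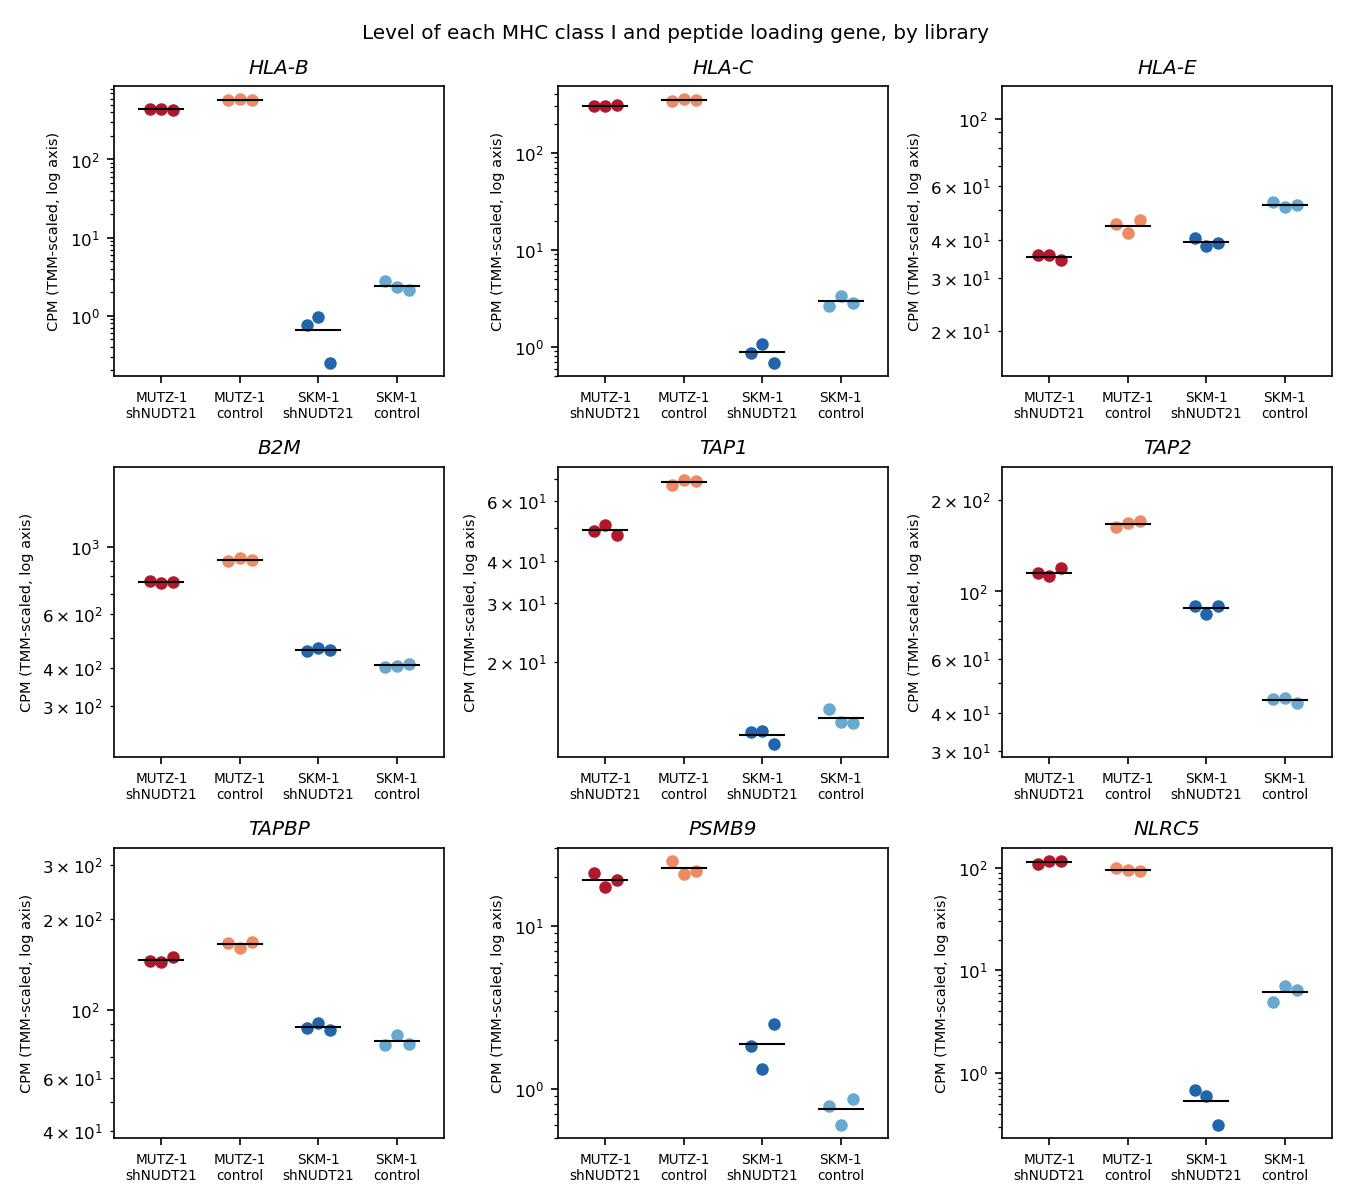
Level of each of the 9 genes in every library, in CPM after TMM scaling on a log axis whose range differs between panels; points are libraries and lines group means, with shNUDT21 left of control in each line. In MUTZ-1 the shNUDT21 points sit below all control points for 7 genes and above them for NLRC5, while those of PSMB9 overlap with control. How many of all tested genes separate in this way was not counted. In SKM-1 HLA-B, HLA-C, PSMB9 and NLRC5 sit below 10 CPM in all libraries.

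Other genes of the pathway fell in MUTZ-1 too, where 24.6% of all tested genes fell and 24.4% rose. All 5 immunoproteasome and PA28 genes fell. The activator subunit PSME2 fell to 131 CPM with shNUDT21, against 200 CPM in control (log2 fold change -0.61 ± 0.03 SE). PSMB8, the beta5i subunit, fell by 0.36, PSME1 by 0.34 and PSMB10, the beta2i subunit, by 0.23 on the log2 scale. The standard proteasome fell as well, with 14 of 14 genes of the 20S core lower (median -0.21), led by PSMB5 (-0.39), PSMA2 (-0.28), PSMB4 (-0.27) and PSMA7 (-0.25). Of 7 loading chaperones and trimming peptidases 6 fell, among them TAPBPL (a second peptide editor, -0.42), LNPEP (-0.28), CANX (calnexin, -0.21) and CALR (calreticulin, -0.20), and ERAP2, which trims peptides in the endoplasmic reticulum, rose (0.15). Of the 6 tested among 7 other heavy chain and class I-like genes, MR1 (-0.42) fell and CD1D (0.83), which presents lipids, rose, while HLA-G was not tested.

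Many genes downstream of interferon fell in MUTZ-1 as well, where 24.6% of all tested genes fell and 24.4% rose. Of 18 interferon-induced genes 15 fell and 1 (IFIT2, 0.45) rose, with a median of -1.48, and MX1, an antiviral GTPase, fell by 5.28 on the log2 scale. IRF9, a transcription factor of the type I response, stood at 8.94 CPM with shNUDT21, against 39.5 CPM in control (log2 fold change -2.15 ± 0.09 SE). Of 9 interferon signalling genes 3 fell, among them IFNGR1 (-0.29), a receptor chain for interferon gamma, and 2 rose, the receptor chain IFNAR2 by 0.66. Among 16 transcription and chromatin factors of class I genes 10 fell and 2 rose. NFKB1 (-0.42), IRF2 (-0.27), ATF1 (-0.24) and IRF1 (-0.21) led the falls, and RFX5 (0.18), the X box factor, and EZH2 (0.20), the Polycomb methyltransferase, rose. Of 11 class II genes 8 fell and 3 were not called (median -0.30), with HLA-DRA down by 0.46.

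Other genes of the MHC region went both ways in MUTZ-1, where 24.6% of all tested genes fell and 24.4% rose. Of 74 other genes listed there, 72 had a row and 70 were tested, of which 19 fell and 21 rose (median 0.03). LTB, a lymphotoxin chain, fell by 0.95 and WDR46 by 0.49 on the log2 scale, while GABBR1 rose by 0.85 and MSH5, a meiotic repair gene, by 0.70. The median over 661 tested genes of chromosome 6 was 0.02.

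In SKM-1, class I and loading genes split after knockdown. The heavy chains and NLRC5 fell, while the light chain, TAP2, tapasin and PSMB9 rose. Of the 9 genes 5 fell and 4 rose, where 42.3% of all tested genes fell and 42.1% rose, so that a call by itself was common. At least 2-fold changes were seen in 5: HLA-B, HLA-C and NLRC5 fell (22.5% of all tested genes fell that far) and TAP2 and PSMB9 rose (12.6% rose that far). TAP2 stood at the 2-fold limit itself, with a log2 change of 1.00, and of 0.92 with library totals alone and 0.91 with log2(FPKM + 0.1). The median log2 change was -0.18, against 0 over all tested genes.

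HLA-B and HLA-C had few counts in all SKM-1 libraries, controls included. HLA-B had 0.752, 0.957 and 0.248 CPM with shNUDT21 (12, 16 and 4 counts), against 2.81, 2.33 and 2.13 CPM in control (50, 43 and 37 counts). The groups did not overlap, and 27.3% of control remained (log2 fold change -1.87 ± 0.25 SE, adjusted p = 1.82e-12; 19.5 to 38.2% at 95% confidence). HLA-C had 0.877, 1.08 and 0.682 CPM with shNUDT21 (14, 18 and 11 counts), against 2.64, 3.31 and 2.87 CPM in control (47, 61 and 50 counts). These groups were apart as well, with 30.1% left (-1.73 ± 0.22 SE, adjusted p = 4.09e-13). How many of these few counts stem from reads of other heavy chain genes was not tested.

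HLA-E, unlike HLA-B and HLA-C, lay between 38.2 and 53.0 CPM in all SKM-1 libraries. It had 40.5, 38.2 and 39.1 CPM with shNUDT21, against 53.0, 51.2 and 52.1 CPM in control, with no overlap (75.3% left; log2 fold change -0.41 ± 0.06 SE, adjusted p = 5.23e-12). B2M, in contrast to the chains it pairs with, rose to 456, 465 and 458 CPM with shNUDT21, against 404, 407 and 412 CPM in control. The groups were apart, at 113% of control (0.17 ± 0.02 SE, adjusted p = 1.65e-13).

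The transporter genes parted in SKM-1. TAP1 had 12.4, 12.5 and 11.4 CPM with shNUDT21, against 14.5, 13.3 and 13.2 CPM in control, with no overlap (log2 fold change -0.18 ± 0.09 SE, adjusted p = 0.0454). This call was lost without SKM-1 control replicate 1 (adjusted p = 0.183) or SKM-1 shNUDT21 replicate 3 (adjusted p = 0.184), with DESeq2 (adjusted p = 0.0625) and with no filter on low counts (adjusted p = 0.0645). TAP2 had 89.5, 84.6 and 89.9 CPM with shNUDT21, against 44.2, 44.7 and 43.0 CPM in control. All shNUDT21 libraries lay far above control, at a level of 2.00 times control (log2 fold change 1.00 ± 0.04 SE, adjusted p = 2.79e-58; 189 to 212% at 95% confidence). TAPBP had 87.5, 90.6 and 86.3 CPM with shNUDT21, against 77.2, 83.2 and 77.4 CPM in control, a small rise without overlap (0.15 ± 0.04 SE, adjusted p = 1.66e-04). The call of TAPBP was lost with library totals alone (0.07, adjusted p = 0.0825), log2(FPKM + 1) (0.07, adjusted p = 0.0774) and log2(FPKM + 0.1) (0.07, adjusted p = 0.0761).

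PSMB9 was low in SKM-1, with 1.82, 1.32 and 2.48 CPM with shNUDT21 (29, 22 and 40 counts), against 0.786, 0.597 and 0.862 CPM in control (14, 11 and 15 counts). Every shNUDT21 library was above every control library, at 249% of control (log2 fold change 1.31 ± 0.27 SE, adjusted p = 3.22e-06; 172 to 359% at 95% confidence). TAP1 and PSMB9 start 488 bases apart and are read in opposite directions, and in SKM-1 their changes had opposite signs. NLRC5 had the largest change of the 9. It stood at 0.689, 0.598 and 0.310 CPM with shNUDT21 (11, 10 and 5 counts), against 4.89, 7.05 and 6.43 CPM in control (87, 130 and 112 counts). The level with shNUDT21 was 8.80% of control (-3.51 ± 0.21 SE, adjusted p = 2.49e-38; 6.56 to 11.8% at 95% confidence), and no library of one group came near the other.

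**Figure D3:**
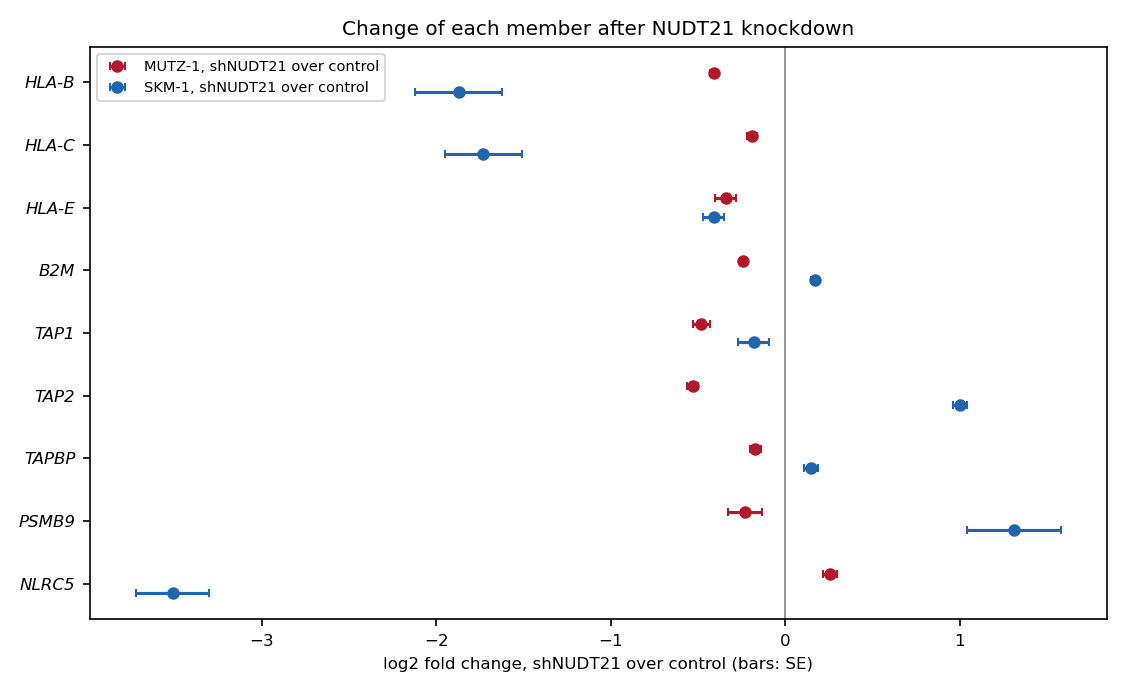
Log2 fold change of shNUDT21 over control for each of the 9 genes, with bars of 1 SE, in MUTZ-1 and in SKM-1. HLA-E lies at nearly the same place in both lines (-0.34 in MUTZ-1 and -0.41 in SKM-1), whereas NLRC5 lies at 0.26 in MUTZ-1 and -3.51 in SKM-1, and TAP2, PSMB9, B2M and TAPBP lie on opposite sides of 0.

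The other genes of the pathway went both ways in SKM-1, where 42.1% of all tested genes rose and 42.3% fell. PSMB8 (1.15) and PSMB10 (0.89) rose with PSMB9, POMP, the proteasome maturation factor, rose by 0.12, and the PA28 genes PSME1 (-1.01) and PSME2 (-0.25) fell. Of 14 genes of the standard 20S core 12 rose and 1 (PSMB4, -0.11) fell (median 0.48), led by PSMB2 (1.03), PSMB3 (0.91), PSMA5 (0.84) and PSMA3 (0.66). Among 7 chaperones and peptidases CALR (1.41), PDIA3 (1.00) and CANX (0.56) rose, and TAPBPL (-3.23), ERAP2 (-0.78) and LNPEP (-0.13) fell. In the list of 7 other heavy chain and class I-like genes, the stress-induced ligands of the NKG2D receptor MICA (1.63) and MICB (1.20) rose, and HLA-F (-5.87), HFE (-1.72), MR1 (-0.72) and CD1D (-2.09) fell. HLA-F (0.0607 CPM with shNUDT21 and 4.02 CPM in control) and CD1D (0.0807 CPM with shNUDT21 and 0.374 CPM in control) were near 0 with shNUDT21.

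Factors that act on class I promoters moved both ways in SKM-1, with 10 of 16 higher and 6 lower, where 42.1% of all tested genes rose and 42.3% fell. Among the 10 was CIITA, which was near 0 in both groups (0.329 CPM with shNUDT21 and 0.131 CPM in control). RFX5 stood at 51.6 CPM with shNUDT21, against 134 CPM in control (log2 fold change -1.37 ± 0.04 SE), and RFXAP at 11.6 CPM with shNUDT21, against 31.2 CPM in control (-1.42 ± 0.08 SE). Both encode subunits of the X box complex RFX, whose remaining subunit gene RFXANK rose by 0.89. IRF1 rose by 1.17, and the Polycomb genes EED (0.96) and EZH2 (0.81) rose. NFKB1 (-0.42) and NFYB (-0.34), a Y box factor, fell. Of the 9 interferon signalling genes 4 rose and 4 fell, near the shares over all tested genes. JAK2 (1.26) and IFNAR1 (0.88) were highest and IRF9 (-0.66) and IFNGR1 (-0.41) lowest. Interferon-induced genes gave 3 rises and 6 falls of 18 (median -0.93), and 9 were not called, several of them near 0 in both groups. UBE2L6, an enzyme of the ISG15 pathway, rose by 2.05 and IFI6 fell by 2.21. Of 11 class II genes 5 fell and 1 (HLA-DOB, 1.30) rose, and the highest mean level among them in SKM-1 control was 6.33 CPM (HLA-DMA).

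Other genes around the chromosome 6 members mostly rose in SKM-1, where 42.1% of all tested genes rose and 42.3% fell. Of the 70 tested in the MHC region 54 rose and 8 fell (median 0.55), among them HSPA1A (1.80), CLIC1 (1.60) and ABCF1 (1.38), while TRIM26 fell by 2.05 and ATAT1 by 1.07 on the log2 scale. The median over chromosome 6 was 0.35. Around NLRC5 on chromosome 16, the log2 change was -3.84 for CPNE2, -1.48 for HERPUD1, -0.73 for RSPRY1 and 0.00 for NUP93, against a chromosome median of -0.10. These neighbours are the tested genes with the nearest starts on either side, among those matched by symbol to GENCODE release 29. Genes without such a match were left out. The neighbours were looked at after the value of NLRC5 was known. In MUTZ-1 the values were -0.16 for CPNE2, 0.09 for HERPUD1, 0.03 for RSPRY1 and -0.27 for NUP93.

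**Figure D4:**
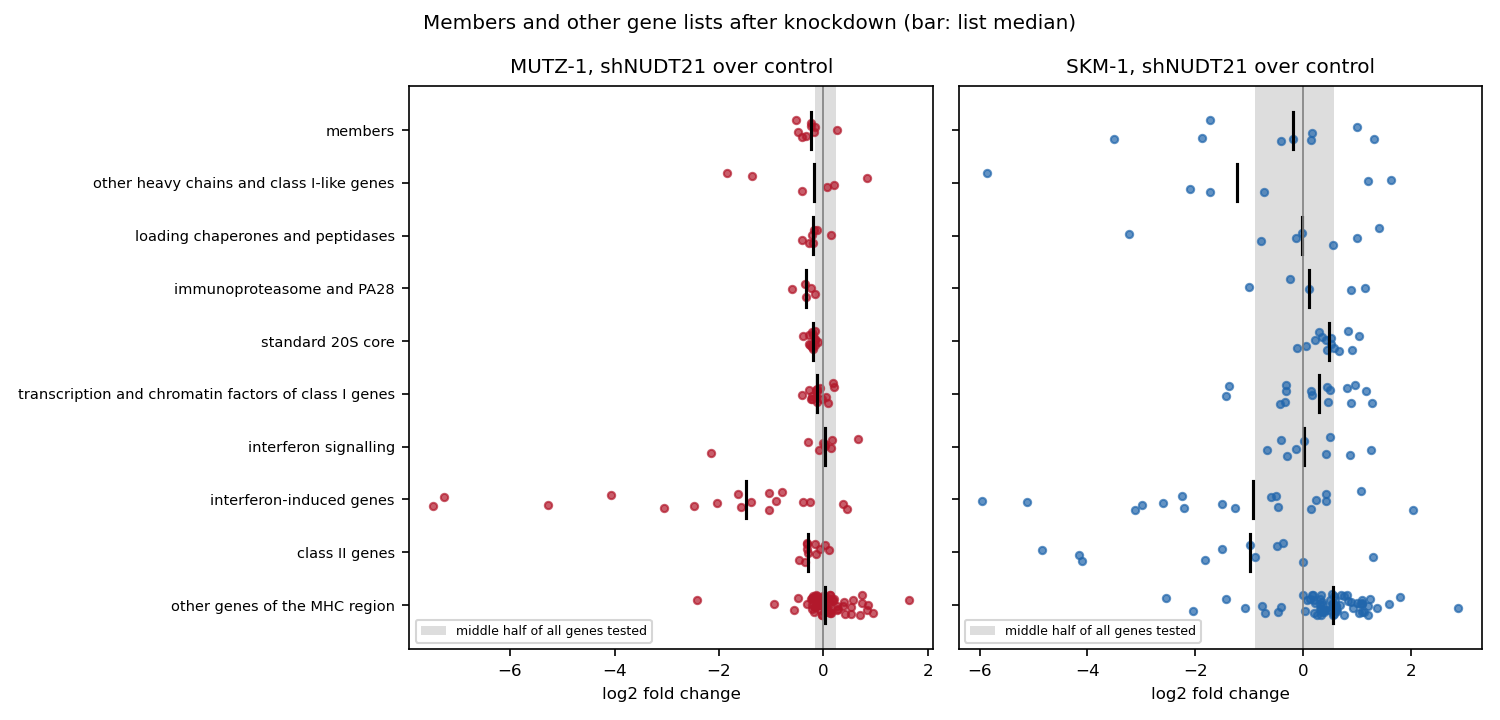
Log2 fold change of shNUDT21 over control for the 9 members and the genes of 9 other lists, in MUTZ-1 (left panel) and SKM-1 (right panel, with its own scale). Points are genes, black bars list medians, and the grey band holds the changes from the lower to the upper quartile of all tested genes; in MUTZ-1 the interferon-induced genes reach furthest down (median -1.48), and in SKM-1 the other MHC region genes lie mostly above 0 (median 0.55).

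The changes of 8 of the 9 members differed between the lines when the difference itself was tested. Those of HLA-B, HLA-C and NLRC5 were more positive in MUTZ-1 and those of B2M, TAP1, TAP2, TAPBP and PSMB9 more negative (36.4% of all tested genes were called more positive, 20.3% at least 2-fold, and 35.6% more negative). The largest difference was that of NLRC5 (MUTZ-1 minus SKM-1, 3.77 ± 0.22 SE on the log2 scale), and PSMB9 (-1.54 ± 0.29), HLA-C (1.54 ± 0.22), TAP2 (-1.53 ± 0.06) and HLA-B (1.47 ± 0.25) followed. For HLA-E the difference was 0.07 ± 0.08 SE (adjusted p = 0.448). The ratio of its folds, MUTZ-1 over SKM-1, was 105%, with a 95% interval of 94.1 to 117%. With library totals alone (0.20, adjusted p = 0.0199), log2(FPKM + 1) (0.19, adjusted p = 0.00541) and log2(FPKM + 0.1) (0.20, adjusted p = 0.00645) this difference was called. Library totals moved the median difference of all genes to 0.17, against 0.04 with TMM. The difference of TAP1 (-0.30 ± 0.10 SE, adjusted p = 0.00675) was lost with library totals (-0.17, adjusted p = 0.139) and without MUTZ-1 shNUDT21 replicate 3 (adjusted p = 0.0619), SKM-1 shNUDT21 replicate 1 (adjusted p = 0.0596) or SKM-1 shNUDT21 replicate 2 (adjusted p = 0.0702).

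The control libraries of the lines already differed in nearly all of these genes. In control MUTZ-1 8 of the 9 were higher than in control SKM-1, all 8 at least 2-fold, and HLA-E was lower. Of all tested genes 90.2% were called, 41.4% higher (16.1% at least 2-fold) and 48.8% lower (29.6% at least 2-fold). The median of the 9 was 2.32 on the log2 scale, against -0.11 over all tested genes. HLA-B (581 ± 9.72 CPM in MUTZ-1 control and 2.42 ± 0.350 CPM in SKM-1 control, SD, n = 3) was 239-fold higher, and HLA-C was 119-fold, PSMB9 29.9-fold and NLRC5 15.5-fold higher. The differences of TAP1 (4.99-fold), TAP2 (3.80-fold), B2M (2.23-fold) and TAPBP (2.08-fold) were smaller. All 11 class II genes (median 7.75 on the log2 scale) and 14 of 18 interferon-induced genes (median 3.19) were higher in MUTZ-1 control, as was CIITA, the class II activator related to NLRC5 (111 CPM in MUTZ-1 control and 0.131 CPM in SKM-1 control).

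Per length, B2M was the most abundant of the 9 in all 4 groups (785 ± 5.46 FPKM in shNUDT21 MUTZ-1, 900 ± 11.1 FPKM in control MUTZ-1, 473 ± 4.02 FPKM in shNUDT21 SKM-1 and 444 ± 3.59 FPKM in control SKM-1). In MUTZ-1 HLA-B (283 FPKM with shNUDT21 and 363 FPKM in control) and HLA-C (197 FPKM with shNUDT21 and 218 FPKM in control) came next, then TAPBP (38.2 FPKM with shNUDT21 and 41.6 FPKM in control). The remaining 5 lay between 13.0 and 18.7 FPKM with shNUDT21 and between 11.4 and 26.1 FPKM in control. NLRC5 was the lowest in MUTZ-1 control and HLA-E the lowest with shNUDT21. With shNUDT21 the libraries of PSMB9 overlapped with those of TAP2 and with those of TAP1, and in control with those of TAP1. The place of PSMB9 in the order is therefore not set, while every TAP2 library lay above every TAP1 library in both groups.

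In SKM-1 the order was another one, with TAPBP (23.1 FPKM with shNUDT21 and 22.0 FPKM in control) and HLA-E (14.6 FPKM with shNUDT21 and 20.5 FPKM in control) next after B2M. TAP2 (14.3 FPKM) overlapped with HLA-E in the shNUDT21 libraries. HLA-C (0.568 FPKM with shNUDT21 and 2.01 FPKM in control) and HLA-B (0.423 FPKM with shNUDT21 and 1.66 FPKM in control) overlapped in both groups. NLRC5 was the lowest with shNUDT21 (0.0662 FPKM), and in control it (0.806 FPKM) overlapped with PSMB9 (0.776 FPKM).

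Ratios between genes were taken per length. The summed FPKM of HLA-B and HLA-C was 61.1 ± 0.707% of B2M in shNUDT21 MUTZ-1 libraries and 64.5 ± 0.364% in control MUTZ-1 libraries (SD, n = 3). In SKM-1 it was 0.225%, 0.275% and 0.128% with shNUDT21, against 0.848%, 0.872% and 0.763% in control. The groups did not overlap in either line, and the SKM-1 sums were under 1% of B2M in all libraries. PSMB9 was 27.0 ± 2.12% of PSMB6, the subunit it replaces, in shNUDT21 MUTZ-1 and 28.5 ± 4.44% in control MUTZ-1, and 1.54 ± 0.537% in shNUDT21 SKM-1 and 0.712 ± 0.118% in control SKM-1. TAP2 to TAP1 was 1.09 ± 0.0718 in shNUDT21 MUTZ-1 and 1.14 ± 0.00979 in control MUTZ-1, and 3.40 ± 0.270 in shNUDT21 SKM-1 and 1.49 ± 0.0732 in control SKM-1. These ratios were not tested.

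**Figure D5:**
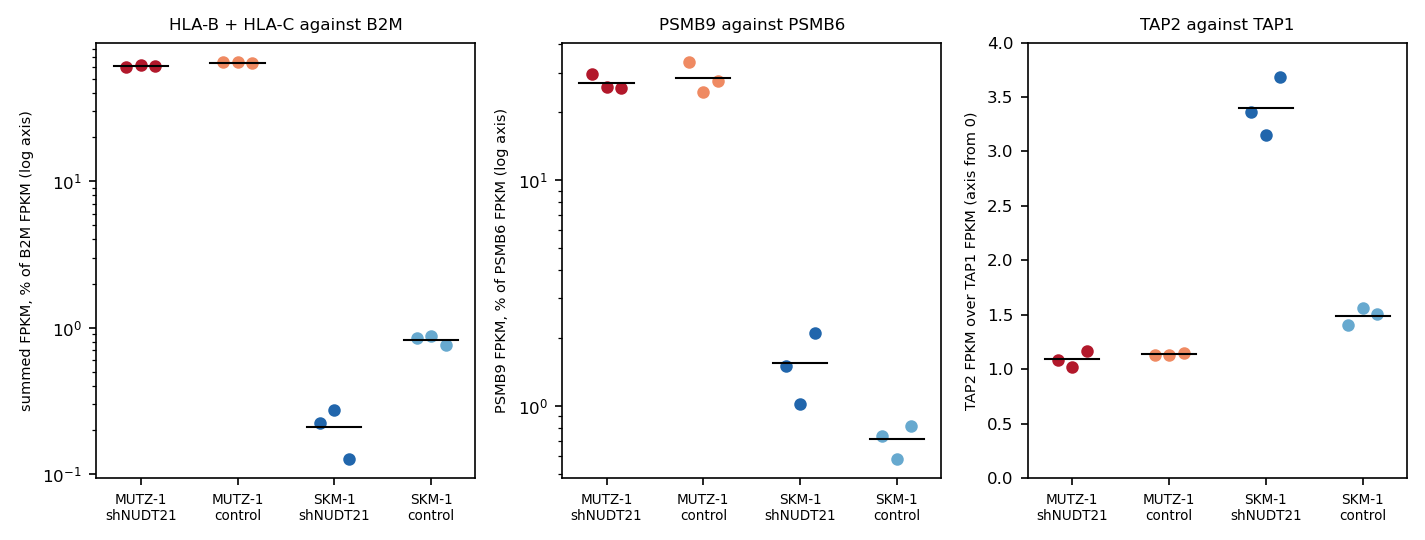
Ratios of FPKM per library (points) with group means (lines): summed HLA-B and HLA-C as a percentage of B2M (log axis), PSMB9 as a percentage of PSMB6 (log axis), and TAP2 over TAP1 (linear axis from 0). The sum of HLA-B and HLA-C, which leaves out HLA-E, is 0.128% to 0.275% of B2M in the shNUDT21 SKM-1 libraries. In the control SKM-1 libraries it is 0.763% to 0.872%. TAP2 over TAP1 is highest in shNUDT21 SKM-1, with a mean of 3.40.

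The genes most like each member were sought by Pearson's correlation of log2(CPM + 1) over the 12 libraries among 10893 genes that averaged 5 CPM or more, as a description. The points share the split between the lines and that between shNUDT21 and control, and how much each adds to r was not separated. HLA-B was most like LPXN (r = 0.9996), HLA-C (0.9993) and TFDP2 (0.9991), and HLA-C most like TFDP2 (0.9998). PSMB9 was most like PALM2AKAP2 (0.9973), with a mean of 91.2 CPM in shNUDT21 MUTZ-1 and 118 CPM in control MUTZ-1, and 2.20 CPM in shNUDT21 SKM-1 and 0.634 CPM in control SKM-1. NLRC5 was most like HPS4 (0.9996), TAP1 was most like ZNF557 (0.9989) and next OAS1 (0.9977), an interferon-induced gene, TAP2 was most like RRP1B (0.9974), B2M was most like GARS1 (0.9995) and TAPBP was most like SAMD9 (0.9972). HLA-E, whose level differed least between the control lines among the 9, had the weakest best match, ZKSCAN1 (0.9844), which stood at 60.7 CPM in shNUDT21 MUTZ-1 and 87.6 CPM in control MUTZ-1, and at 75.4 CPM in shNUDT21 SKM-1 and 112 CPM in control SKM-1.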

How the data were processed

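RNA from 12 libraries of 2 human cell lines, in 4 groups of 3 taken from the sample titles, was isolated with TRIzol and made into libraries with a stranded mRNA kit, per the labels' protocols. Reads were handled with fastp, HISAT2 and HTSeq on GRCh38, per the submitters' processing notes; versions, annotation, strand setting and how reads with many matches were counted: not given in the sources used here. The authors deposited 2 tables, 1 of raw counts and 1 of FPKM, per gene and library. All columns were used. The counts were tested with edgeR 4.0.16 in R 4.3.3: filterByExpr on the 4 groups, TMM scaling, glmQLFit with robust shrinkage and group means over all 12 libraries (8 residual degrees of freedom; biological coefficient of variation 2.44%), and Benjamini-Hochberg adjustment over 13625 genes at 0.05. SEs are the absolute log2 fold change over the root of the F statistic. The scripts were tested on simulated data. Deposited FPKM values served for comparisons between genes and, as log2(FPKM + 1) or log2(FPKM + 0.1), for limma 3.58.1. Other alternatives were library totals, RLE factors, DESeq2 1.42.0, other filters, fewer libraries and the replicate number as a block.

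The members and lists were chosen with earlier results of these data known, and some genes that belong to such lists are not reported here. Named genes are all 9 members and, per list, comparison and direction, up to 4 called genes with the largest change and a mean of at least 5 CPM over the libraries compared; HLA-F, CD1D, PSMB8, TAPBPL, ERAP2, HLA-DOB and HLA-DMA in SKM-1 fell outside this rule and were named after their values were seen. Per member, the 3 genes of highest correlation were ranked. Gene positions are from RefSeq and GENCODE release 29 (97.7% of tested genes matched by symbol), and upstream sequences from RefSeq on GRCh38.p14.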

Additional observations from a re-analysis of the deposited data

Results flagged for a closer look

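For 8 of the 9 genes the change after knockdown differed between the lines by edgeR's quasi-likelihood test of the difference (MUTZ-1 minus SKM-1, log2 scale, n = 3 libraries per group). It was more positive in MUTZ-1 for NLRC5 (3.77, adjusted p = 4.37e-41), HLA-C (1.54, adjusted p = 1.73e-10) and HLA-B (1.47, adjusted p = 4.61e-08). It was more negative in MUTZ-1 for PSMB9 (-1.54, adjusted p = 3.70e-07), TAP2 (-1.53, adjusted p = 2.45e-70), B2M (-0.42, adjusted p = 1.05e-31), TAPBP (-0.32, adjusted p = 2.44e-09) and TAP1 (-0.30, adjusted p = 0.00675). The same test called 72% of all tested genes, so that a call for a single gene is common here. Groups of 3 libraries were too small for a search for single outlying libraries.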

How the results depend on the processing

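Of 747 single-gene values under alternatives, 716 kept their direction and their side of the threshold, 28 lost a call, 3 gained one and 0 changed direction. Of the lost calls 16 were in MUTZ-1, 8 in SKM-1 and 4 in the difference. With log2(FPKM + 0.1) and limma, 5 members fell and 0 rose in MUTZ-1, against 8 that fell and 1 that rose from the counts; the cause was not tested. Adding a pseudocount shrinks the changes of low genes: NLRC5 in SKM-1 changed by -0.76 with log2(FPKM + 1), against -3.51. Library totals moved the median of all genes in the comparison of the controls to -0.24, against -0.11. Replicate numbers did not pair the samples (correlations of deviations between -0.052 and 0.026). With the replicate block, TAP1 in SKM-1 lost its call (adjusted p = 0.0512), 4 members fell there instead of 5, and no other call of a member changed. HLA-B, HLA-C, PSMB9 and NLRC5 rest on 4 to 130 counts per library in SKM-1.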
